A study of Rattus norvegicus with 84 samples.

Results

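The 9 genes described here, which belong to the complement system or mark microglia, were measured in extracellular vesicles (EVs), the membrane particles that cells release, from the brain and the blood plasma of rats after stroke. They were chosen by name, with earlier results of these data known, and comprised C1qa, C1qb, C1qc, C3, Csf1r, Cx3cr1, P2ry12, Tmem119 and Aif1. All 9 were found among the 18782 annotated genes of the count table, and all 9 passed the filter on low counts in both tissues. The 42 mRNA libraries came from 21 rats in 7 groups of 3, with 1 brain and 1 plasma library from each rat. The healthy group carried no occlusion label. The control groups underwent transient occlusion of the right middle cerebral artery, received saline through the carotid artery 3 days later and were examined on day 4, day 10 or day 31 poststroke. The hNSCs groups had the same occlusion and received human neural stem cells (hNSCs), suspended in a glucose buffer, by the same route on the same day. All rats were wild type by their labels, and the study used adult male Sprague-Dawley rats. Brain EVs were taken from the frozen hemisphere on the side of the occlusion. Human cells were present in the hosts of the hNSCs groups only, and their reads were not separated in the rat table used here.

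Complement is a cascade of proteins that tags debris, synapses and microbes for removal. C1q, which opens the classical pathway, is assembled from 3 chains encoded by C1qa, C1qb and C1qc, and in the brain it is made mostly by microglia. C3 is the component on which all complement pathways converge, and it is made by the liver and by reactive astrocytes and myeloid cells. Microglia, the resident macrophages of the brain, depend on the receptor Csf1r for survival, sense neuronal fractalkine through Cx3cr1 and extracellular ADP through P2ry12, and carry the membrane protein Tmem119. Cx3cr1, P2ry12 and Tmem119 are regarded as homeostatic genes because microglia lower them on activation. Aif1 encodes Iba1, a calcium-binding protein of microglia and macrophages. Outside the brain, Csf1r, Cx3cr1 and Aif1 are also expressed in monocytes, and P2ry12 is abundant in platelets.

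The genes of the 3 C1q chains lie next to each other on rat chromosome 5, and C1qa and C1qb are shown here because their mRNAs moved together in the brain libraries. The windows below cover the 250 bases before and 50 bases after each gene's start as RefSeq gives them for the build GRCr8, which is not the build of the deposited files, Rnor_6.0. C1qa lies at chr5:154419884-154420183 and C1qb at chr5:154407778-154408077, both on the minus strand. Capitals mark matches on either strand to GGAAGT, a core bound by Ets factors such as the myeloid regulator PU.1, or to GAGGAA, the beginning of the PU box.
C1qa: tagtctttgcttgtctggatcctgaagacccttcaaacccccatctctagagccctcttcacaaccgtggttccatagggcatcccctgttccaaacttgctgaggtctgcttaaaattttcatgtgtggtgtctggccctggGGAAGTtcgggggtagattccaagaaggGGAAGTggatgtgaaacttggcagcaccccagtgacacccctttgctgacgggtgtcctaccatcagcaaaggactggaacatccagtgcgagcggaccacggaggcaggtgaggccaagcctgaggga
C1qb: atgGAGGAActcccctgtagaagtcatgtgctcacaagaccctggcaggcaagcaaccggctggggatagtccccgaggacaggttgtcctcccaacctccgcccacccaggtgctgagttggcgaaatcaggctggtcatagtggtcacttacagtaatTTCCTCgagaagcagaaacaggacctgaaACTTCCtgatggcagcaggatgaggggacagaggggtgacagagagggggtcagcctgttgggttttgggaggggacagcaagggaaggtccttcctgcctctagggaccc
C1qa held GGAAGT at bases 144 to 149 and 172 to 177 of its window, counted from the 5′ end. C1qb held it on the opposite strand at bases 190 to 195 and held GAGGAA at bases 4 to 9 and, on the opposite strand, at 161 to 166. The letters GAGGAA and GGAAGT overlap when they follow each other as in the full PU box, which did not occur in either window. GGAAGT was present in 22.6% and GAGGAA in 27.6% of all 33469 promoter windows, so a match alone is common. Windows were at hand for 5 of the 9 genes. On the opposite strand, Csf1r held GAGGAA at bases 22 to 27 and 156 to 161, and Cx3cr1 held GGAAGT at bases 274 to 279. C3 held neither but carried TTGCNNAA, a C/EBP-type motif, at bases 147 to 154, as did 10.6% of all windows. TATAAA, which was found in 14.2% of windows, was absent from all 5.

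Counts on annotated genes ranged from 569136 to 15587216 (median 3746015) in the brain libraries and from 6357675 to 31028559 (median 20833331) in plasma. Annotated genes took 13.9% ± 6.91 (SD, n = 3) of the counts in healthy brain, and 23.5% ± 1.65, 12.3% ± 1.03 and 38.2% ± 6.89 in control brain on day 4, day 10 and day 31. Levels are given as CPM, counts scaled to an equal total over annotated genes after TMM normalization, which removes shifts shared by most genes, or as FPKM, which also corrects for transcript length and is relative to the whole library. A gene was called changed when edgeR's quasi-likelihood test gave a Benjamini-Hochberg adjusted p under 0.05 over all genes tested and a change over 1.5-fold. With 3 rats per group, a difference that was not called is no evidence of equal levels. A lower level of an mRNA in EVs may reflect fewer EVs from a cell type or less RNA per EV, which bulk libraries cannot tell apart.

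Per transcript length, the C1q chains had the highest means of the 9 genes over all brain-derived EV libraries pooled. Mean FPKM over the 21 brain libraries was 4.80 for C1qa (SD 3.56, range 0.360 to 11.95), 3.65 for C1qc (SD 4.11, range 0 to 14.3) and 3.27 for C1qb (SD 3.18, range 0.113 to 11.7). Aif1 followed with 2.95 (SD 4.28), then Csf1r with 1.45 (SD 1.19), C3 with 0.717 (SD 0.882), Cx3cr1 with 0.446 (SD 0.392), Tmem119 with 0.375 (SD 0.251) and P2ry12 with 0.234 (SD 0.211). Neighbors in this order differed by less than the larger of their SDs. The order differed within groups. In healthy rats the mean of Csf1r (0.167 FPKM) was above those of C1qb (0.1495) and C1qc (0.0867), and those of Cx3cr1 (0.0605) and C3 (0.0167) were below those of P2ry12 (0.0833) and Tmem119 (0.0835). In control rats at 10 days Aif1 had the highest mean (6.79 FPKM, SD 10.95), which rested on 1 rat (0, 19.4 and 0.938 FPKM). P2ry12 and Tmem119, which had the lowest pooled means, were covered by 1 to 148 and 0 to 206 reads per brain library. Among the 3 chains, C1qa took the largest share of the summed C1q FPKM in 15 of 21 brain libraries (median 49.0%, range 22.7% to 76.1%), C1qc in 5 (median 25.5%) and C1qb in 1 (median 26.0%).

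C1qb and C1qc rose in brain-derived EVs 4 days poststroke and remained called at 10 days, when C1qa, Csf1r and C3 were called as well. At 31 days none of the 9 was called by edgeR, although all 9 estimates were above the healthy group at each of the 3 time points. The question of this comparison is how EV cargo differs over time between stroke rats without a transplant and healthy rats. Control rats also had surgery and a saline injection, and no group was labeled as sham. Stroke cannot be told apart from these procedures, and a stroke effect here means control against healthy.

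C1qc, the chain with the largest change, was nearly absent from healthy brain EVs, with 0, 6.64 and 4.22 CPM in the 3 rats (0, 30 and 15 reads). It stood at 319.0, 212.0 and 113.0 CPM in the control rats at 4 days, at 46.5, 267.7 and 121.1 CPM at 10 days, and at 37.7, 44.1 and 7.41 CPM at 31 days. Every stroke library lay above every healthy one, and the lowest was the third control rat at 31 days. The log2 fold change against healthy was 5.71 at 4 days (standard error 0.96, adjusted p = 0.0112 with edgeR), 5.14 at 10 days (standard error 0.94, adjusted p = 0.0157) and 2.86 at 31 days (standard error 0.87, adjusted p = 0.483).

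C1qb, the second chain called at both days, had 9.34, 5.76 and 6.19 CPM in healthy rats. The control rats reached 223.9, 61.0 and 104.4 CPM at 4 days, 13.6, 199.1 and 119.1 CPM at 10 days, and 40.2, 43.4 and 19.2 CPM at 31 days. Control rats did not overlap healthy rats at any time point, and the first control rat at 10 days came closest. The log2 fold changes were 4.22 (standard error 0.93, edgeR adjusted p = 0.0281), 3.99 (standard error 0.92, adjusted p = 0.0473) and 2.31 (standard error 0.87, adjusted p = 0.550) at the successive days.

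C1qa had the smallest estimates of the 3 chains and stood at 26.6, 12.6 and 18.01 CPM in healthy rats. Its control values were 213.1, 107.8 and 73.4 CPM at 4 days, 48.6, 281.6 and 194.9 CPM at 10 days, and 60.05, 81.5 and 56.1 CPM at 31 days, all above the healthy range. The log2 fold change of 2.81 at 4 days missed the threshold (standard error 0.72, edgeR adjusted p = 0.0645), that of 3.22 at 10 days passed it (standard error 0.73, adjusted p = 0.0471), and that of 1.81 at 31 days did not (standard error 0.70, adjusted p = 0.558).

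C3, where the complement pathways meet, was called by edgeR at 10 days and not at 4 or 31 days. Healthy brain EVs held 0, 5.54 and 2.53 CPM, and control rats held 19.2, 18.8 and 36.8 CPM at 4 days, 37.1, 175.3 and 253.4 CPM at 10 days, and 62.8, 143.7 and 54.7 CPM at 31 days. The groups did not overlap with the healthy group at any time point. The log2 fold change was 3.02 at 4 days (standard error 1.16, edgeR adjusted p = 0.210), 5.66 at 10 days (standard error 1.28, adjusted p = 0.0460) and 4.82 at 31 days (standard error 1.23, adjusted p = 0.336). Between 4 and 31 days, C3 was higher by 1.80 on the log2 scale (standard error 1.05) and the groups did not overlap, whereas C1qb was lower by 1.92 (standard error 0.82) and C1qc by 2.85 (standard error 0.82), also without overlap. None of the 9 genes passed the adjusted threshold between these days (edgeR adjusted p = 0.767, 0.386 and 0.227 for the 3 named), against 0.248% of all genes called in either direction. Lack of overlap was common, at 19.1% of all genes in the higher and 10.1% in the lower direction, and among the 9 it also held for Tmem119 (−0.69, standard error 1.07), which was lower.

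Csf1r, the growth factor receptor, had 25.9, 17.9 and 36.3 CPM in healthy rats. It stood at 166.0, 87.8 and 112.6 CPM at 4 days, at 56.2, 345.1 and 166.3 CPM at 10 days, and at 88.6, 137.0 and 67.3 CPM at 31 days. All 9 control rats exceeded all healthy rats. The log2 fold changes were 2.19 (standard error 0.54, edgeR adjusted p = 0.0543), 2.82 (standard error 0.56, adjusted p = 0.0241) and 1.87 (standard error 0.54, adjusted p = 0.420), so Csf1r was called at 10 days.

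The 3 homeostatic genes were not called by edgeR at any time point. With limma on log2(FPKM + 1), Cx3cr1 was called at 31 days (log2 difference 0.83, adjusted p = 0.00269), when 57% of all genes were called higher in that fit. Cx3cr1 was at 0, 4.87 and 2.81 CPM in healthy rats and between 7.24 and 35.0 CPM in the 9 control rats, which did not overlap, with log2 fold changes of 2.66, 2.68 and 2.07 (standard errors 1.33, 1.33 and 1.30, lowest edgeR adjusted p = 0.363). P2ry12 overlapped with the healthy range of 2.25 to 7.31 CPM at each time point, with log2 fold changes of 1.83, 2.28 and 0.65 (standard errors 1.28, 1.30 and 1.24). Tmem119 had the smallest estimates, at 1.09, 1.95 and 0.41 (standard errors 1.09, 1.12 and 1.08), and its healthy values of 21.6, 6.42 and 2.25 CPM overlapped with those of every control group. Aif1 was at 0, 6.20 and 5.63 CPM in healthy rats and at 48.3, 58.1 and 20.8 CPM in control rats at 4 days (log2 fold change 3.31, standard error 1.28). At 10 days its 3 control values were 0, 418.3 and 43.9 CPM, so the group spanned the healthy range, and the log2 fold change of 5.17 (standard error 1.38) had an edgeR adjusted p of 0.0956.

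**Figure D1:**
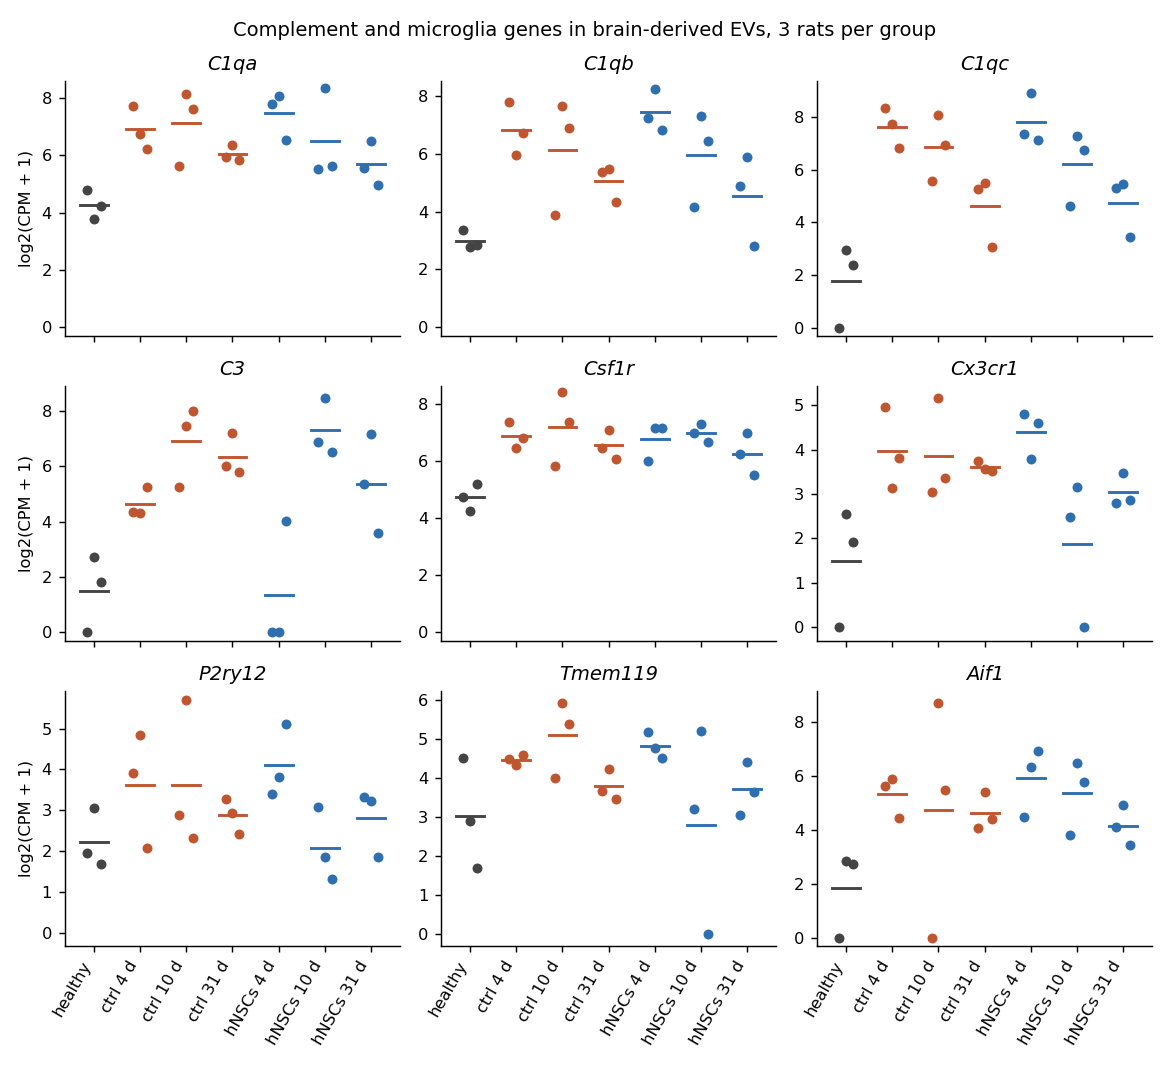
Levels of the 9 genes in brain-derived EVs as log2(CPM + 1), 1 panel per gene, with a point for each rat, a bar for the mean of 3 rats, healthy in gray, control in orange and hNSCs in blue. C1qa, C1qc and Csf1r have all 18 stroke rats above the 3 healthy rats, while P2ry12 and Tmem119 overlap with them.

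Because the 9 genes were chosen with earlier results of these data known, the following counts describe the list and do not test it. Counted over the list, 2 of the 9 genes were called higher at 4 days, where 0.73% of all 14515 genes tested were called higher. At 10 days 5 of 9 were called higher against 0.537% of all genes. At 31 days 0 of 9 were called by edgeR, which called 1 gene in all (0.00689%), whereas DESeq2 called 2 of 9 against 0.923%. At an unadjusted p under 0.05, 6 of 9 were higher on each of the 3 days, compared with 8.52%, 7.54% and 5.3% of all genes. The median log2 fold change of the 9 genes was 2.81, 3.22 and 2.07 at the successive days, and that of all genes was 0.05, 0 and 0.24. Control rats did not overlap healthy rats, in the higher direction, for 7, 6 and 7 of the 9 genes, compared with 13.9%, 7.05% and 18.9% of all genes. For C1qa, C1qc and Csf1r, all 18 stroke rats, both arms included, stood above the highest healthy rat, which held for 0.434% of all genes. C1qc, C3, Cx3cr1 and Aif1 had no reads in 1 of the 3 healthy rats. They could pass the filter on low counts only with libraries of stroke groups. Their part in these counts was thus partly set by the filter and tests nothing. With the 3 control groups averaged, only C1qc was called among the 9 (log2 fold change 4.57, standard error 0.87, edgeR adjusted p = 0.0270), against 0.158% of all genes called higher, and 6 of 9 did not overlap against 2.62%. Csf1r then had a log2 fold change of 2.30 (standard error 0.49, adjusted p = 0.0506).

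The calls depended on single libraries. At 4 days 0 of 9 genes were called without the first or without the third healthy rat, and C1qc alone remained called without the second healthy rat or without the first control rat. At 10 days 0 were called without any 1 of the healthy rats or without the second control rat, 2 without the third control rat and 6 without the first. The log2 fold change of C1qc against healthy under the alternatives fitted to counts lay between 5.26 and 6.32 at 4 days and between 4.35 and 5.68 at 10 days.

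**Figure D2:**
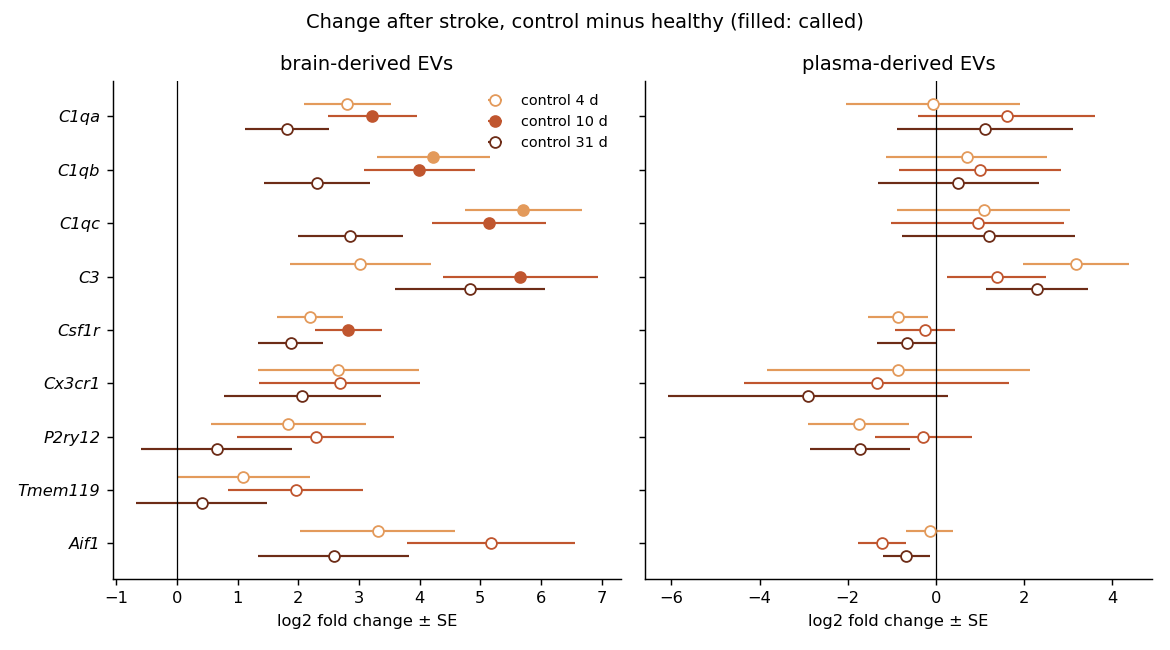
Log2 fold change of each gene against healthy rats (control minus healthy) in brain-derived EVs (left) and plasma-derived EVs (right) on days 4, 10 and 31, with standard errors and filled symbols for called genes. In brain every estimate is above 0 and 7 are filled, and in plasma none is filled. Tmem119 is left out in plasma because most of its plasma libraries hold no reads.

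Calls differed when limma was run on the deposited FPKM values, which changed both the test and the scale. FPKM is relative to the whole library, and the share of counts on annotated genes differed between the groups. limma on log2(FPKM + 1) called 7 of 9 genes higher at 31 days and 0 of 9 at 10 days. In that fit 57% of all genes were called higher at 31 days, with a median log2 difference 0.45 above that on counts, and 0% at 10 days. C1qa stood at 0.360, 0.461 and 0.446 FPKM in healthy rats, at 11.95, 4.82 and 3.12 FPKM in control rats at 4 days, and at 8.57, 8.83 and 3.59 FPKM at 31 days. C1qc was at 0, 0.182 and 0.0777 FPKM in healthy rats and at 14.3, 7.20 and 3.65 FPKM at 4 days. At 31 days it was at 4.97, 3.84 and 0.360 FPKM. At 4 days limma also called C1qb and C1qc (adjusted p = 0.0315 and 0.0186), together with C1qa (adjusted p = 0.0371), beside 1.74% of all genes. Whether the test or the scale set the differences between limma and edgeR was not tested.

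**Figure D3:**
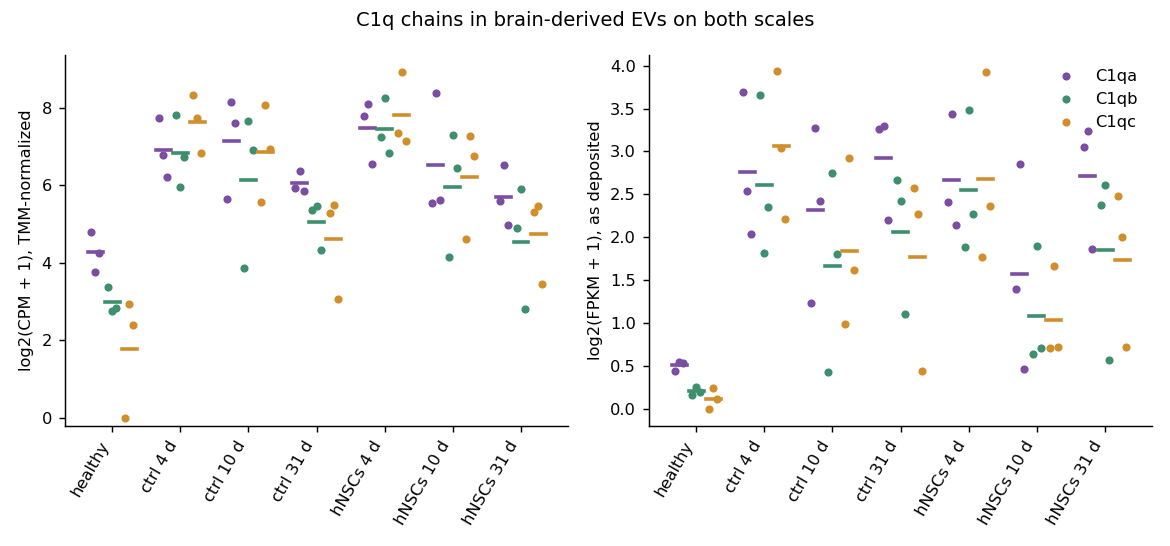
The 3 C1q chains in brain-derived EVs as TMM-normalized log2(CPM + 1) (left) and as deposited log2(FPKM + 1) (right), with a point per rat and a bar for the group mean. All control rats lie above all healthy rats for C1qa on both scales. The third hNSCs rat at 10 days lies in the healthy C1qa range on FPKM (0.378 against 0.360 to 0.461). For C1qb, the third hNSCs rat at 31 days lies in the healthy range on CPM (6.05 against 5.76 to 9.34).

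Other genes of these systems were read from lists of pathway members and cell type markers. The remaining classical components were not called. Of C1r, C1s, C2, C4a and C4b, 0 of 5 passed the threshold used by edgeR at any time point. An unadjusted p under 0.05 was reached by 0, 2 and 0 of them at the successive days, beside 8.52%, 7.54% and 5.3% of all genes in the higher direction. C4a and C4b, near-identical genes between which reads are split with uncertainty, had log2 fold changes of 1.30 and 1.10 at 4 days and of 2.34 and 2.94 at 10 days (standard errors 0.89, 1.13, 0.92 and 1.198). C1r and C1s, the proteases bound to C1q, had 2.18 and −0.41 at 4 days (standard errors 1.34 and 2.13). The median over the 5 genes was 1.11, 2.61 and 1.44. Of the lectin and alternative pathway genes, 0 of 6 tested were called at any of the 3 days, as were 0 of 3 terminal components and 0 of 7 regulators.

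Receptors for complement fragments were mostly without reads in healthy brain EVs. Itgb2, the common chain of complement receptors 3 and 4, was called at 10 days (edgeR adjusted p = 0.0477). It was the 1 of 8 tested receptors that was, beside 0.537% of all genes called higher. Itgb2 had no reads in the 3 healthy rats and 19.6, 82.5 and 0 CPM in the control rats at 10 days, so the third control rat was level with the healthy rats. Pooled over its rats, the control group was at least 117.3-fold higher against a floor of 3 counts over the healthy group. C3ar1, C5ar1, C5ar2 and Itgax also had no reads in healthy rats, 5 of the 8 receptors in all. With those at their bound the median log2 difference was 4.08, 3.80 and 3.46 at the successive days. Genes without healthy reads could pass the filter on low counts only through stroke groups, so this median was bound to be high and tests nothing.

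Among 17 tested genes of other homeostatic or microglial function, 1 was called higher at 4 days and 3 at 10 days, beside 0.73% and 0.537% of all genes. None was called at 31 days, beside 0.00689% of all genes. On that day 7 passed an unadjusted p under 0.05, beside 5.3% of all genes in the higher direction. Ctsd, a lysosomal protease, rose from 26.5 to 69.1 CPM in healthy rats to 324.2 to 462.2 CPM at 4 days (log2 fold change 3.01, standard error 0.68, edgeR adjusted p = 0.0316) and was also called at 10 days (3.42, standard error 0.69, adjusted p = 0.0254). Ctss, another protease of microglia, and Cst3, the protease inhibitor cystatin C, were called at 10 days with log2 fold changes of 3.70 and 2.17 (standard errors 0.82 and 0.50, edgeR adjusted p = 0.0408 and 0.0477). Trem2, a lipid receptor, was not called, with 1.99 at 4 days and 2.12 at 10 days (standard errors 1.55 and 1.56). Tyrobp, its signaling adaptor, had no reads in healthy rats and 44.7, 23.5 and 10.8 CPM at 4 days, at least 89.0-fold higher, but was not called (edgeR adjusted p = 0.0899). Of 8 microglial transcription factors, Runx1 was called at 4 days and Irf8 at 10 days, beside 0.73% and 0.537% of all genes called higher. Runx1 had no reads in healthy rats and 37.9, 19.1 and 20.4 CPM at 4 days (at least 86.5-fold higher, edgeR adjusted p = 0.0451). Like Tyrobp, it could pass the filter on low counts only through stroke groups. Irf8 was between 0 and 17.2 CPM in healthy rats and between 36.2 and 334.3 CPM at 10 days (log2 fold change 4.15, standard error 0.89, adjusted p = 0.0359).

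None of the ligands of Csf1r and Cx3cr1 was called. Csf1 and Il34, which both bind Csf1r, had log2 fold changes of 1.17 and 0.90 at 4 days (standard errors 0.86 and 1.64, edgeR adjusted p = 0.674 and 0.951). Cx3cl1, the neuronal ligand of Cx3cr1, was at 107.8 to 256.7 CPM in healthy rats and 61.0 to 108.1 CPM at 4 days (log2 fold change −0.91, standard error 0.36, adjusted p = 0.222).

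Markers of other cells moved alongside. The summed CPM of 9 monocyte and border macrophage genes, among them Pf4, which platelets also express, was 17.96 to 29.0 in healthy rats, 231.9 to 826.3 at 4 days, 43.5 to 758.2 at 10 days and 61.0 to 96.7 at 31 days. Of the 8 of these genes tested, Lyz2 was called at 4 days (log2 fold change 3.99, standard error 0.89, edgeR adjusted p = 0.0303), beside 0.73% of all genes called higher. An unadjusted p under 0.05 was reached by 7, 5 and 1 of the 8 at the successive days, beside 8.52%, 7.54% and 5.3% of all genes in the higher direction. Ms4a7, a border macrophage gene, was at 0 in 20 of 21 brain libraries and in 20 of 21 plasma libraries. Other genes of this list had reads in more brain libraries, with Cd163 at 0 in 9 and Mrc1 and Lyve1 in 6 each. The 8 neutrophil genes summed to 0 to 3.66 CPM in healthy rats and 20.9 to 47.5 CPM at 4 days. Csf3r was at 0 in 3 of 21 brain libraries (median 9.07 CPM), and each of the other neutrophil genes was at 0 in at least 18. The 5 T cell genes summed to 0 in healthy rats and at most 6.51 CPM in any brain library. The 8 platelet genes summed to at most 57.4 CPM in any brain library, with Ppbp at 0 in all 21. Of 11 hepatocyte genes, Alb and Apoa1 were at 0 in 14 of 21 brain libraries and Apoa2 in all 21. Tf was at 0 in none (median 146.6 CPM), Hp in 7 (median 4.11 CPM) and each of the remaining hepatocyte genes in at least 18. The 11 genes summed to 105.8 to 155.9 CPM in healthy rats and 275.2 to 400.5 CPM in control rats at 4 days. Tf had by far the highest median among them, so this sum is not read as a level of hepatocyte RNA. The 6 neuronal genes summed to 4526 to 5772 CPM in healthy rats and 2463 to 4313 CPM at 4 days, the 6 oligodendrocyte genes to 2618 to 3058 and 3891 to 6337 CPM, and the 6 astrocyte genes to 1072 to 1123 and 3150 to 3361 CPM. Healthy and control rats at 4 days thus did not overlap in any of these 4 sums. Gfap, the astrocyte filament gene, was called at each of the 3 days (log2 fold changes 2.25, 1.99 and 2.50, standard errors 0.36, 0.35 and 0.36, highest edgeR adjusted p = 0.0129). The part of monocyte and macrophage RNA, or of a shift in the other cell types listed here, in the values of the 9 genes was not tested.

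Across the 21 brain libraries, the genes whose log2 CPM was most like the mean of the 3 C1q chains were Tln1 (Pearson r = 0.958), Col1a2 (0.944), Col1a1 (0.943), Ttc28 (0.943) and Col3a1 (0.943), out of 14506 genes ranked. Tln1 encodes the cytoskeletal protein talin and the 3 Col genes encode fibrillar collagens. With the same mean, Csf1r had r = 0.843, Aif1 0.754, Cx3cr1 0.593, P2ry12 0.480, Tmem119 0.465 and C3 0.217. Genes most like the mean of Csf1r, Cx3cr1, P2ry12 and Tmem119 were Plekho1 (0.943), Hcls1 (0.933), LOC100911825 (0.927), Gpnmb (0.926) and LOC498276 (0.926). C3 had r = 0.215 with that mean. These values describe libraries that share their groups and their depth, and carry no test.

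Transplantation of hNSCs was compared with saline at each day to ask whether it changed the EV content. In brain-derived EVs edgeR called 0 of the 9 genes and 0 of all 14515 genes (0%) at 4, 10, and 31 days, and DESeq2 and limma also called 0 of the 9. At an unadjusted p under 0.05, 0 of the 9 differed at any day. Estimates of the C1q chains were smaller in size than their standard errors at 4 and 31 days. At 4 days they were 0.57 for C1qa, 0.54 for C1qb and 0.29 for C1qc (standard errors 0.66, 0.79 and 0.76). At 31 days they were −0.23, −0.13 and 0.03 (standard errors 0.66, 0.79 and 0.77). For 10 days, the alternatives fitted to counts gave −1.82 to 0.21 for C1qa, −1.08 to 0.37 for C1qb and −1.12 to 0.15 for C1qc.

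C3 gave the largest difference at 4 days, at 0, 0 and 15.1 CPM in hNSCs rats and 19.2, 18.8 and 36.8 CPM in control rats. The groups did not overlap in the lower direction, as for 6.82% of all genes, and the log2 fold change was −2.23 (standard error 1.11, edgeR adjusted p = 0.694). Leaving out 1 library moved this value between −1.66 and −10.03. The lower end came without the third hNSCs rat, which left that group with no C3 reads, so the fitted value then depends on the prior count and is no bound. At 10 days C3 was at 116.8, 352.3 and 90.4 CPM in hNSCs rats, a log2 fold change of 0.27 (standard error 1.02), and at 31 days at 39.6, 141.1 and 11.1 CPM, a log2 fold change of −0.44 (standard error 1.01). The change of this effect on C3 from 4 to 10 days was 2.50 (standard error 1.497, adjusted p = 0.701 for the interaction), and it lay between 1.75 and 10.32 with 1 library left out, again highest without the third hNSCs rat at 4 days. At 31 days Cx3cr1 was lower without overlap (6.002, 10.01 and 6.29 CPM against 12.4, 10.8 and 10.4 CPM, log2 fold change −0.59, standard error 1.24), as were 2.67% of all genes.

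At 10 days, 8 of the 9 estimates in brain were below 0 and the median was −0.63, beside −0.34 over all genes. P2ry12 was at 7.46, 2.66 and 1.51 CPM in hNSCs rats and 6.39, 50.8 and 3.99 CPM in control rats (log2 fold change −2.33, standard error 1.31, edgeR adjusted p = 0.445). Cx3cr1 was at 4.62, 7.99 and 0 CPM against 7.24, 35.0 and 9.31 CPM (−1.98, standard error 1.31), and Tmem119 at 8.17, 35.5 and 0 CPM against 14.9, 59.7 and 40.6 CPM (−1.39, standard error 1.10). The groups overlapped for all 9 genes. The third hNSCs rat at 10 days, at 0 for Cx3cr1 and Tmem119, had the fewest counts on annotated genes of all brain libraries (569136), so a count of 0 there sets a higher limit than in the other libraries. Interaction terms between the days were called by edgeR for 0 of the 9 genes in either tissue, where at most 0.00679% of all genes were called.

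**Figure D4:**
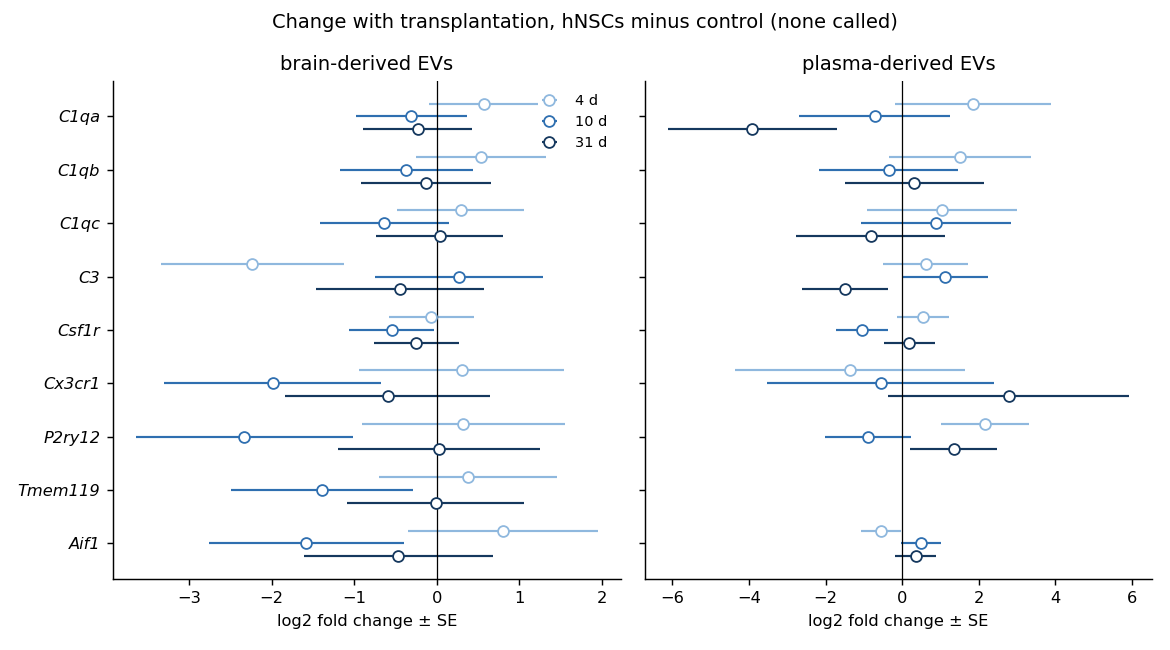
Log2 fold change of each gene with transplantation (hNSCs minus control) in brain-derived EVs (left) and plasma-derived EVs (right) at 4, 10, and 31 days, with standard errors. No gene is called. C3 at 4 days and P2ry12 at 10 days have the lowest estimates in brain, at −2.23 and −2.33.

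In plasma-derived EVs the order of the genes was different. Mean FPKM over 21 libraries was 89.6 for C3 (SD 108.7, range 3.87 to 374.4), 37.6 for Aif1 (SD 23.4), 5.50 for P2ry12 (SD 6.34), 4.67 for C1qa (SD 4.18), 3.70 for C1qb (SD 3.47), 3.66 for C1qc (SD 3.08), 2.81 for Csf1r (SD 1.46), 1.24 for Cx3cr1 (SD 1.605) and 0.0520 for Tmem119 (SD 0.102). Apart from Aif1 and P2ry12, neighbors differed by less than the larger of their SDs. Tmem119, the most microglia-specific of the 9, had no reads in 14 of 21 plasma libraries and at most 50 in any. In plasma the hepatocyte genes Fga and Ahsg and the platelet genes Itga2b and Pf4 had reads in all 21 libraries.

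Between healthy rats, C3, Aif1 and P2ry12 were lower in brain-derived than in plasma-derived EVs, 3 of the 9 genes beside 10.8% of all 16945 genes called lower. The log2 differences, brain minus plasma, were −7.08 for C3 (standard error 1.6, edgeR adjusted p = 0.00125), −5.36 for Aif1 (standard error 1.25, adjusted p = 0.00176) and −4.61 for P2ry12 (standard error 1.30, adjusted p = 0.00941). With the rat as a block, which pairs the brain and plasma of each animal, P2ry12 had −3.72 and was no longer called (adjusted p = 0.0875), while C3 (−7.53, adjusted p = 0.00739) and Aif1 (−5.63, adjusted p = 0.0217) were. Leaving out 1 healthy library moved the P2ry12 difference between −5.94 and −2.16, and without the second plasma library it was no longer called. Tmem119 had a log2 difference of 3.00 (standard error 2.14, edgeR adjusted p = 0.334) and was not called. It had at most 30 reads in a healthy brain library and at most 39 in a healthy plasma library. The C1q chains lay between 0.39 and −1.43 and were not called. Cx3cl1 was called higher in brain (6.80, standard error 1.73, adjusted p = 0.00393). C1r, C1s, C4a and C4b were called lower, with log2 differences between −3.64 and −6.07.

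**Figure D5:**
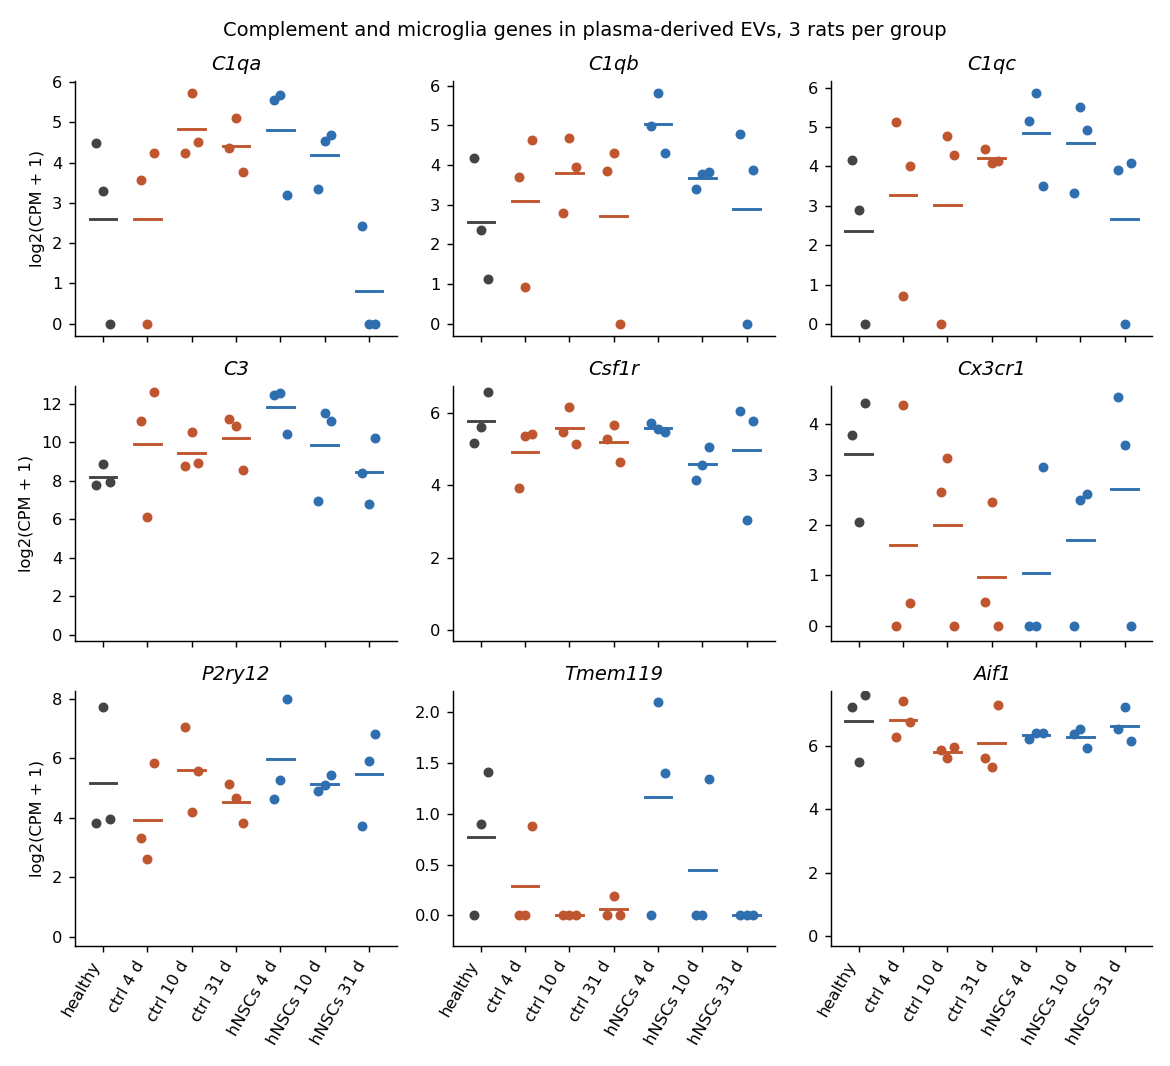
Levels of the 9 genes in plasma-derived EVs as log2(CPM + 1), drawn as for brain. The rats of each group spread widely, C3 is highest, and Tmem119 is at 0 in most libraries.

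No stroke effect on the 9 genes was called in plasma. edgeR called 0 of 9 on each day, against 0.0679%, 0% and 0% of all 14720 genes in either direction, and DESeq2 and limma also called 0 of 9. At an unadjusted p under 0.05, C3 was higher at 4 days and Aif1 lower at 10 days. The median log2 fold change of the 9 genes was −0.15, −0.25 and −0.66 at the successive days, beside −0.12, −0.22 and −0.09 for all genes.

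C3 in plasma was at 218.1, 466.0 and 244.1 CPM in healthy rats and at 2213, 67.5 and 6172 CPM in control rats at 4 days. Of these control rats, 2 were above the healthy range and 1 was below it. The log2 fold change was 3.19 (standard error 1.201, edgeR adjusted p = 0.742), followed by 1.38 at 10 days and 2.29 at 31 days (standard errors 1.12 and 1.16). The summed level of 11 hepatocyte genes was 3649, 7821 and 2902 CPM in the healthy rats and 21720, 1133 and 36960 CPM in these control rats, so it was low in the same rat as C3, and the part of liver RNA in the spread of C3 was not tested.

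Aif1 was at 149.3, 44.2 and 195.0 CPM in healthy rats and at 57.0, 48.2 and 60.9 CPM in control rats at 10 days (log2 fold change −1.23, standard error 0.54, edgeR adjusted p = 0.750). P2ry12 was at 13.2, 208.5 and 14.5 CPM in healthy rats, and the second rat also had the highest sum of 8 platelet genes in that group (15550 CPM, against 1260 and 849.6 CPM). The part of platelet RNA was not tested. Csf1r had log2 fold changes of −0.87, −0.25 and −0.66 at the successive days (standard errors 0.68, 0.67 and 0.68), the opposite sign to brain at each day. The C1q chains had between −0.07 and 1.603 with standard errors of 1.82 to 2.01, which were wider than in brain.

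With transplantation, plasma Csf1r was higher at 4 days without overlap (51.7, 45.9 and 43.8 CPM in hNSCs rats, 14.18, 40.44 and 42 CPM in control rats) and lower at 10 days without overlap (16.7, 22.7 and 32.4 CPM against 43.5, 71.0 and 34.1 CPM). The log2 fold changes were 0.55 and −1.05 (standard errors 0.68 and 0.68), neither was called, and the interaction between these days was −1.597 (standard error 0.96, edgeR adjusted p = 0.908). Groups that do not overlap were found for 3.34% of all genes in the higher direction at 4 days and for 2.38% in the lower direction at 10 days. Across the 3 days edgeR called 0 of the 9, against 0.00679%, 0% and 0% of all genes. At 31 days C1qa was at 4.35, 0 and 0 CPM in hNSCs rats and at 19.4, 33.7 and 12.5 CPM in control rats (log2 fold change −3.91, standard error 2.21, adjusted p = 0.522). The groups did not overlap, as for 6.57% of all genes in the lower direction, while C1qb and C1qc overlapped.

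The stroke effect in brain was set against that in plasma in 1 fit of both tissues. The difference, brain minus plasma, was positive for 8, 9 and 9 of the 9 genes at 4, 10, and 31 days, with medians of 3.48, 3.85 and 2.67 beside 0.31, 0.32 and 0.71 over all genes. edgeR called 0 of the 9 at each day (lowest adjusted p = 0.161, 0.105 and 0.318), against 0.159%, 0.13% and 0.0177% of all genes. An unadjusted p under 0.05 was reached by 4, 4 and 2 of the 9, and DESeq2 called 1, 2 and 0 of them. The shares of all genes for these last counts are not given here, so the counts are not read as results about the 9. A change called in brain and not in plasma is therefore not shown to differ between the tissues by the main test.

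Whether brain and plasma levels moved together was examined over the 21 rats for the 6 genes with reads in at least 18 libraries of each tissue. Pearson r of log2 CPM was 0.338 for C1qb (permutation p = 0.134, Spearman rho 0.461 with permutation p = 0.0371) and 0.243 for C1qc (permutation p = 0.287, rho 0.495 with permutation p = 0.0238). It was −0.267 for Csf1r (permutation p = 0.240, rho −0.309), −0.169 for Aif1 (permutation p = 0.471, rho −0.0617), −0.129 for C3 (permutation p = 0.577, rho −0.00650) and −0.0932 for P2ry12 (permutation p = 0.687, rho −0.199). These permutation tests were two-sided. Over the 6091 genes tested, each of the 6 had an adjusted p of 0.998, while 2 genes in all passed 0.05. Without the 2 rats farthest from the median brain level, r was 0.402 for C1qb, 0.339 for C1qc, −0.295 for Csf1r, −0.189 for Aif1, 0.266 for C3 and −0.317 for P2ry12. Centered within the 7 groups, r was 0.123 for C1qb, 0.0207 for C1qc and between −0.189 and −0.100 for the other genes.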

How the data were processed

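After trimming of adapters and removal of poor reads, the authors aligned read pairs of 42 EV mRNA libraries to Rnor_6.0 with Bowtie2. The deposited counts are whole reads per gene without normalization, while deposited FPKM came from StringTie, summed by the authors over the transcripts of a gene. How reads were assigned to genes and the strand setting of the counting are not given in the sources used here. The other deposited tables (miRNA) were not used. Groups were taken from the sample labels, whose extraction text names serum where other fields name plasma.

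Counts of annotated genes entered edgeR 4.0.16 (R 4.3.3) with TMM factors and filterByExpr. Quasi-likelihood models held 7 groups for each tissue and 14 for both. The 7855 unannotated genes entered 1 alternative. A call required more than a 1.5-fold change beside an adjusted p (Benjamini-Hochberg) under 0.05. Standard errors were derived from the F statistic. The steps were tested on simulated data. The alternatives were DESeq2 1.42.0, limma 3.58.1 on log2(FPKM + 1) and log2(FPKM + 0.1), other size factors or none, no filter, only the groups compared, a replicate block, an unadjusted p, 13 hemoglobin genes left out, and each library left out. The study's own methods name limma.

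The labels number the rats within each group. Deviations of same-numbered libraries correlated by 0.0108 on average in brain and −0.0175 in plasma, so these numbers do not pair samples between groups. Brain and plasma of 1 rat are paired by the labels, although their deviations correlated by 0.00890. Library depth limits low genes, and a floor of 3 counts covers counting error only. No 2 libraries were identical. P values measure the spread between rats. Correlations used 100000 permutations. The 9 genes, the other lists and the rule for the genes most alike were chosen with earlier results of these data known. Beyond the 9, the text names called genes of each list, the ligands and classical components, and genes that show which cells a list reads. Sequences are from RefSeq (GRCr8) and were matched by symbol.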

Additional observations from a re-analysis of the deposited data

How the results depend on the processing

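None of the 9 genes changed direction in a comparison where it was called under either setting. Over 4564 values of the 9 genes under alternatives, 204 changed sign, all without a call in either setting. For brain after stroke, 665 of 666 values were above 0, the exception being Tmem119 at 31 days without the third healthy rat (−0.13). No gene was called for hNSCs against control in brain or for any plasma comparison under an adjusted threshold. Numbers of the 9 genes called were as follows, and the cause of each shift was not tested. The share of all genes called differed between fits. In brain against healthy, limma on log2(FPKM + 1) called 1.74%, 0% and 57% of all genes higher at 4, 10 and 31 days, and DESeq2 called 0.923% at 31 days. The counts below therefore describe the settings and are not results about the 9 genes. At 4 days in brain (2 called), DESeq2, limma on log2(FPKM + 0.1), no filter, only the groups compared and the replicate block each gave 4, an unadjusted p gave 6, and leaving out a library gave 0 to 2. At 10 days (5 called), both limma fits and only the groups compared gave 0, keeping unannotated genes or leaving out hemoglobin genes gave 2, and leaving out a library gave 0 to 6. At 31 days (0 called), DESeq2 gave 2, limma gave 7 and, with a pseudocount of 0.1, 8, and an unadjusted p gave 6. With the control groups averaged (1 called), DESeq2 gave 7, limma 4 and 8, no normalization factors 2, no filter 3, only the groups compared 4, the replicate block 2, an unadjusted p 6, and leaving out a library 0 to 6. Between 31 and 4 days (0 called), DESeq2, both limma fits and only the groups compared gave 1 and an unadjusted p gave 2. In plasma an unadjusted p gave 1 at 4 days, at 10 days, with the control groups averaged and for the change of the hNSCs effect from 10 to 31 days. Between healthy brain and plasma (3 called), both limma fits gave 5 and leaving out a library gave 2 to 4. For brain minus plasma (0 called), DESeq2 gave 1 at 4 days and 2 at 10 days, limma gave 1 and 2 at 31 days, an unadjusted p gave 4, 4 and 2, and leaving out a library gave 0 to 2 at 10 days. The replicate block, whose numbers do not pair rats in the labels, added C1qa and Csf1r at 4 days (adjusted p = 0.0404 and 0.0415) and Csf1r to the averaged control groups, and dropped C1qb at 10 days (adjusted p = 0.0670).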
